A study of Mus musculus with 6 samples.

Results

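The 9 genes described here carry out the life cycle of dopamine, from synthesis to breakdown. They were taken by name as Th, Ddc and Gch1 (synthesis), Slc18a2 (packaging), Slc6a3 (reuptake), Drd2 (autoreceptor), and Maoa, Maob and Aldh1a1 (breakdown), with the probe set of highest mean per gene. Each of the 9 had 1 probe set of its own among 41345, and 22180 genes had one in all. RNA of the ventral midbrain, which holds the substantia nigra and the ventral tegmental area, had been hybridised to 6 Affymetrix mouse gene arrays. Of these, 3 were labelled Bach1 KO and 3 wild type, all from male mice of 2 months. The labels give neither the strain, nor the design of the Bach1 allele, nor whether each array held RNA of a separate mouse, so p-values measure only the spread between these samples. The number of arrays limits the precision. BACH1 is a heme-binding transcriptional repressor of antioxidant and iron genes. The question for these genes was whether any step of dopamine handling differed between the genotypes.

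Dopamine is made from tyrosine in the cytosol of the neuron. Tyrosine hydroxylase (Th) makes L-DOPA with tetrahydrobiopterin as cofactor, whose synthesis GTP cyclohydrolase (Gch1) starts, and aromatic amino acid decarboxylase (Ddc) makes dopamine from it. The vesicular monoamine transporter VMAT2 (Slc18a2) loads it into vesicles, the dopamine transporter (Slc6a3) takes it back after release, and the D2 receptor (Drd2) on the same neurons restrains firing and release. Monoamine oxidases A and B (Maoa, Maob) oxidise dopamine to an aldehyde, which aldehyde dehydrogenases such as Aldh1a1 clear. Serotonin neurons share Ddc, Gch1, Slc18a2 and the oxidases, and Maob is also abundant in astrocytes.

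The arrays were first checked against their labels. The level of Bach1 was 7.59, 7.68 and 7.70 on the knockout-labelled arrays and 7.47, 7.59 and 7.57 on the wild-type arrays, so its signal was not lower where the label says knockout. A probe set that reads outside the deleted part would not show a deletion, so directions are given by label. Hmox1, a classical BACH1 target, was 3.85-fold higher (95% interval 3.22 to 4.62; limma, adjusted p = 0.0181). All 20 of 20 markers of dopamine neuron identity lay above the 40th percentile of mean level (5.07), Nr4a2, Slc10a4, Chrna6 and Pitx3 among them. So did 15790 of all 22180 genes. The same held for 10 of 10 astrocyte and 7 of 7 measured striatal markers, but for 4 of 7 pituitary and 2 of 4 serotonin neuron markers. Passing this level therefore does not tell the ventral midbrain from other brain tissue. Markers of neighbouring tissue differed between arrays: the score of 9 hypothalamic markers (mean log2 deviation from the average of all arrays) spanned -0.99 to -0.038 in the knockout-labelled group and -0.24 to 1.05 in the wild-type group, with the extremes on replicate 3 of each. All 9 had a lower mean in the knockout-labelled group (median log2 difference -1.04), where 46.9% of all genes had a higher mean. At an unadjusted p under 0.05 limma gave 2 of the 9, against 8.27% of all probe sets, and it called 0.

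Promoter sequences are shown for 4 of the members, since BACH1 acts on promoters and enhancers: Aldh1a1 as the member whose groups did not overlap, Th and Slc18a2 as the pair with the highest correlation, and Ddc as a synthesis gene with 2 of the motifs. RefSeq windows (GRCm38.p6), 250 bases before to 50 after a transcription start, were found for 8 of the 9 genes, 10 windows in all. They were searched on both strands for TGANTCA, a loose form of the TRE core that allows any middle base. The TRE core itself, with C or G in the middle, lies inside the site of BACH1 with its small Maf partners. The search also covered the antioxidant response element core TGACNNNGC, the cAMP response element TGACGTCA, the NR4A element AAAGGTCA and the GC box GGGCGG. These motifs can overlap one another, as the antioxidant response core and a GC box do in Drd2. In the runs below, 5′ to 3′ along the gene and ending at the base before the start (Slc18a2 runs to its 4th transcribed base), capitals mark the matches to TGANTCA, TGACGTCA and, in Ddc, AAAGGTCA on the other strand. Aldh1a1 lies at chr19:20492333-20492582 (+), Th at chr7:142899996-142900245 (-), Slc18a2 at chr19:59260628-59260881 (+) and Ddc at chr11:11898145-11898394 (-).
Aldh1a1: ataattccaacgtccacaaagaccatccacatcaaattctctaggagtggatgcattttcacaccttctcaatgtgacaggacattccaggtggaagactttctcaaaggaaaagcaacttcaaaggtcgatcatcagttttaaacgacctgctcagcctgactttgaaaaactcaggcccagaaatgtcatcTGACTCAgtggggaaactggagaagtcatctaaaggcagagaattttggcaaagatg
Th: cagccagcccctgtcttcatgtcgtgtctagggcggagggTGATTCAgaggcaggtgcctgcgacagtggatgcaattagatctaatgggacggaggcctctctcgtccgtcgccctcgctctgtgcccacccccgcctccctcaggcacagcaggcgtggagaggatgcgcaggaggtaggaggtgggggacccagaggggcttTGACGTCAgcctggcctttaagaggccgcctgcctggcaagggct
Slc18a2: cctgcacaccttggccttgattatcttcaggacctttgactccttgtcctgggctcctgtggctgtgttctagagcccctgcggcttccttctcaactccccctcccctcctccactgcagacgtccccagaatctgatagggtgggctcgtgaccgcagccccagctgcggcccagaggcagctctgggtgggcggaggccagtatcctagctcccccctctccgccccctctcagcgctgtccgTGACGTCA
Ddc: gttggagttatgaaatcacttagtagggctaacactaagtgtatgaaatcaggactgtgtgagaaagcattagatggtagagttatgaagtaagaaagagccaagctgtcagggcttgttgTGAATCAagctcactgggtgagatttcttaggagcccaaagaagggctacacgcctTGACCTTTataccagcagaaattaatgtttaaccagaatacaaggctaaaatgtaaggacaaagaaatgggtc

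The loose TRE pattern TGANTCA occurred in windows of 3 of the 8 members with a window and in 7.81% of all 32851 windows of this length. It read TGACTCA in Aldh1a1 (-57 to -51), TGATTCA in Th (-210 to -204) and TGAATCA in Ddc (-129 to -123). Only the match in Aldh1a1 has C or G in the middle, and windows with that narrower form were not counted. The antioxidant response core occurred in 1 member, Drd2 (-61 to -53), and in 12.4% of all windows. The cAMP response element occurred in 2 members, Th (-45 to -38) and Slc18a2 (-4 to 4), against 1.79% of all windows. The NR4A element, named for the factor family of Nr4a2, occurred in Ddc (-73 to -66) and in 1.51% of all windows. GC boxes occurred in 6 of the 8 members with a window, all but Ddc and Aldh1a1, and in 35.7% of all windows. Members were counted by gene, over any of their 10 windows, and the shares by window, so the units differ. A match describes letters in the window and not a bound site.

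None of the 9 genes passed the test between the groups. For 7 of the 9 the knockout-labelled mean was higher and for 2 (Maoa and Maob) it was lower, where 46.9% of all genes had a higher mean. The median log2 difference of the 9 was 0.15, against -0.0098 over all genes. Limma called 0 of 9 at an adjusted p under 0.05, a threshold that 0.00726% of all probe sets passed. At an unadjusted p under 0.05 it gave 1 of 9, Aldh1a1, against 8.27% of all probe sets. That count turned on single arrays and on the scaling. It was 2 (Ddc and Aldh1a1) after renewed quantile normalization, against 7.71% of all probe sets. It was 4 (Th, Ddc, Slc18a2 and Aldh1a1) without knockout-labelled replicate 2, against 6.58% of all probe sets, and 2 (Maob and Aldh1a1) without wild-type replicate 1, against 8.75%. It was 0 without any other 1 array (knockout-labelled replicate 1 or 3, wild-type replicate 2 or 3), with arrays centred on their medians and with the replicate block. The groups did not overlap for 1 of the 9, Aldh1a1, against 14.3% of all probe sets in either direction. Of the 7 higher members, Drd2 was lower once arrays were centred on their medians (log2 difference -0.0032).

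**Figure D1:**
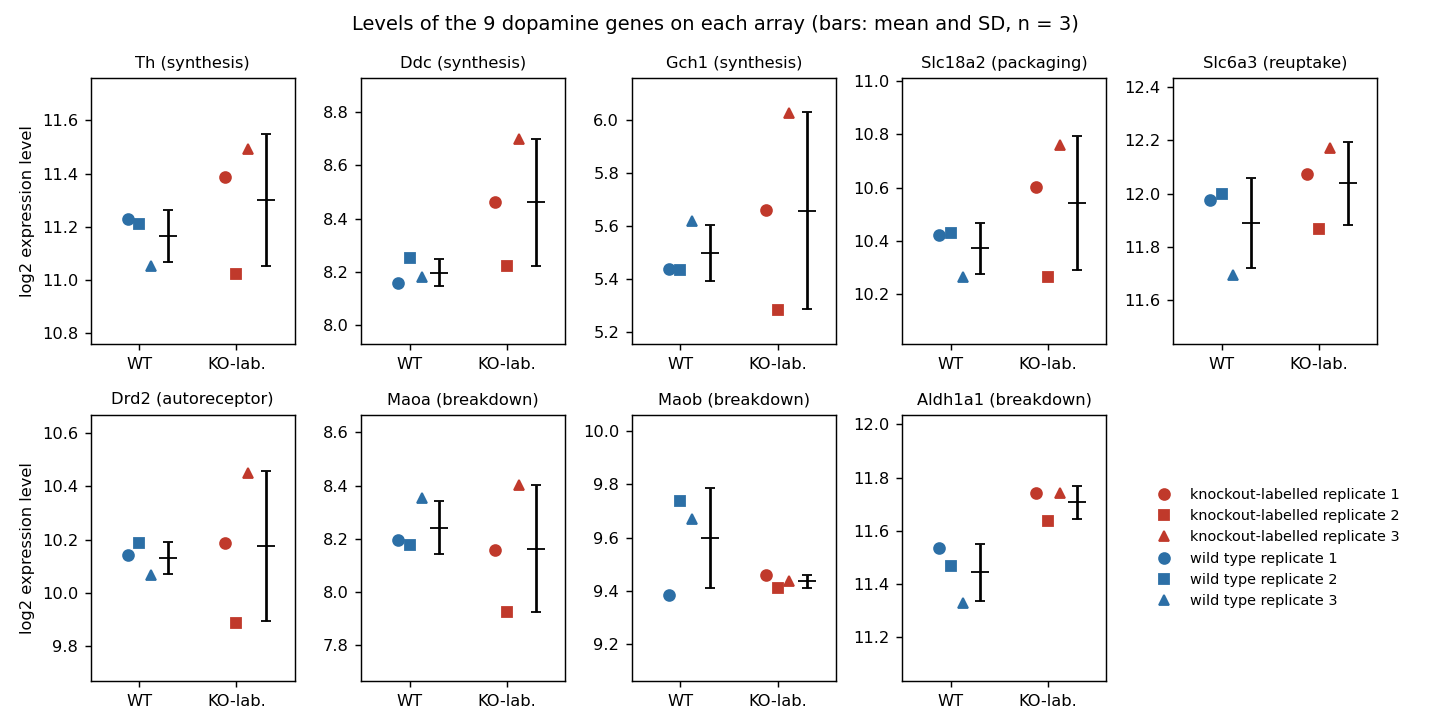
Log2 expression level of each of the 9 genes on every array, with a vertical span of 1 log2 unit in each panel; KO-lab. stands for knockout-labelled, black bars give the mean and SD of 3 arrays. The groups overlap in all panels but that of Aldh1a1, and knockout-labelled replicate 2 is the lowest of its group in all 9.

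Th had levels of 11.39, 11.02 and 11.49 on knockout-labelled replicates 1, 2 and 3 and of 11.23, 11.21 and 11.05 on the wild-type arrays. The knockout-labelled group held both the highest and the lowest array. The log2 difference was 0.14 (SE 0.14, 95% interval -0.21 to 0.48; limma, adjusted p = 0.822), so the data allow anything from a 0.866-fold to a 1.4-fold level. It was 0.28 without knockout-labelled replicate 2, 0.039 without knockout-labelled replicate 3 and 0.080 without wild-type replicate 3.

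Ddc was at 8.46, 8.22 and 8.70 on the arrays labelled knockout and at 8.16, 8.25 and 8.18 on the others. Knockout-labelled replicates 1 and 3 lay above every wild-type array and replicate 2 lay within their range. Its log2 difference, 0.26 (95% interval -0.058 to 0.59), was the largest of the 9, next to that of Aldh1a1, and did not pass (limma, adjusted p = 0.644). Without knockout-labelled replicate 3 it was 0.15, under the 0.25 of Aldh1a1 there.

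Gch1 was at 5.66, 5.29 and 6.03 in the knockout-labelled group and at 5.44, 5.44 and 5.62 in the wild-type group. It spread most widely of the 9, over 0.74 log2 units within the knockout-labelled group, and its mean level was the nearest to the 40th percentile of all probe sets. The log2 difference of 0.16 (95% interval -0.31 to 0.62; limma, adjusted p = 0.851) became -0.025 without knockout-labelled replicate 3 and 0.34 without replicate 2.

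Slc18a2 was at 10.60, 10.27 and 10.76 on the arrays labelled knockout and at 10.42, 10.43 and 10.26 on the others. The lowest array of each group, replicate 2 and replicate 3, had almost the same level. The log2 difference was 0.17 (95% interval -0.18 to 0.52; limma, adjusted p = 0.774). It was 0.31 without knockout-labelled replicate 2 and 0.063 without replicate 3.

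Slc6a3 was at 12.07, 11.87 and 12.17 in the knockout-labelled group and at 11.98, 12.00 and 11.69 in the wild-type group. It differed from Th and Slc18a2 in that its wild-type spread (SD 0.17) was as large as its knockout-labelled spread (SD 0.16), because wild-type replicate 3 was low. The log2 difference was 0.15 (95% interval -0.16 to 0.46; limma, adjusted p = 0.782). It was 0.050 without wild-type replicate 3, 0.081 without knockout-labelled replicate 3 and 0.23 without knockout-labelled replicate 2.

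Drd2 was at 10.19, 9.89 and 10.45 on the arrays labelled knockout and at 10.14, 10.19 and 10.07 on the others. All 3 wild-type arrays lay between knockout-labelled replicates 2 and 3. The log2 difference was 0.044 (95% interval -0.32 to 0.41; limma, adjusted p = 0.955), and it was -0.094 without knockout-labelled replicate 3, 0.19 without knockout-labelled replicate 2, 0.071 without wild-type replicate 2 and 0.011 without wild-type replicate 3.

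Aldh1a1, which marks dopamine neurons of the ventral tier of the substantia nigra, was at 11.74, 11.64 and 11.74 in the knockout-labelled group and at 11.54, 11.47 and 11.33 in the wild-type group. Every knockout-labelled array lay above every wild-type array. The level was 1.2-fold (95% interval 1.03 to 1.4), a log2 difference of 0.26 with an SE of 0.090, and this did not pass over all probe sets (limma, unadjusted p = 0.026, adjusted p = 0.564). Over the alternatives its adjusted p ran from 0.475 to 0.84.

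Maoa was at 8.16, 7.93 and 8.40 on the arrays labelled knockout and at 8.19, 8.18 and 8.35 on the others. The knockout-labelled range again enclosed the wild-type range. The log2 difference was -0.079 (95% interval -0.42 to 0.26; limma, adjusted p = 0.905), and it was 0.039 without knockout-labelled replicate 2, -0.20 without knockout-labelled replicate 3 and -0.023 without wild-type replicate 3.

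Maob was at 9.46, 9.41 and 9.44 in the knockout-labelled group and at 9.38, 9.74 and 9.67 in the wild-type group. Its knockout-labelled arrays were nearly equal (SD 0.024), and the wild-type arrays spread widely (SD 0.19), with replicate 1 below all others and replicates 2 and 3 above all others. The log2 difference was -0.16 (95% interval -0.43 to 0.11; limma, adjusted p = 0.732). It was -0.27 without wild-type replicate 1 and -0.091 without wild-type replicate 2.

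**Figure D2:**
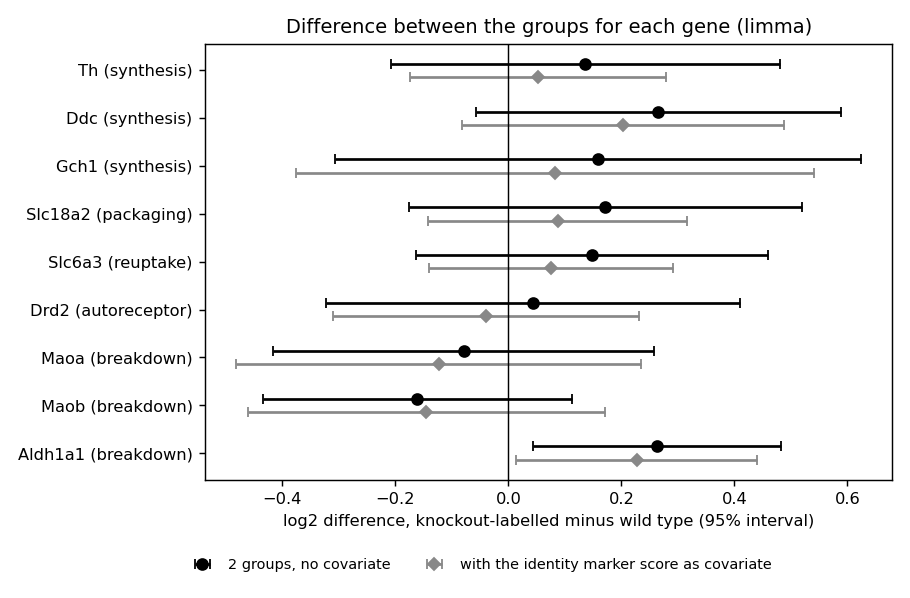
Log2 difference (knockout-labelled minus wild type) of each gene with its 95% interval from limma; black circles are the fit of the groups alone, grey diamonds the fit with the identity marker score as a covariate. Every interval but that of Aldh1a1 spans 0 in both fits.

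Whether steps of the cycle changed by different amounts was tested on the log2 ratio of genes within an array, for 8 pairs. With 3 against 3 arrays the exact two-sided permutation test cannot go below p = 0.1, and no pair reached it. The log2 ratio of Th to Maob was higher by 0.30 on the knockout-labelled arrays (exact permutation p = 0.2, adjusted over the 8 pairs p = 0.533). The values were 1.93, 1.61 and 2.06 against 1.85, 1.47 and 1.38, and they overlapped. The ratio of Th to Ddc was lower by the log2 value of -0.13 and that of Th to Drd2 higher by 0.092 (both exact permutation p = 0.2, adjusted p = 0.533). The change of Maoa exceeded that of Maob by 0.082 (exact permutation p = 0.7), and Th and Slc6a3 changed by amounts only -0.012 apart (exact permutation p = 1.0).

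Within the groups, the order of the arrays was compared between members. All 9 were lowest on knockout-labelled replicate 2 among the arrays of that group, as were 38.7% of all genes, and 8 of 9, all but Maob, were highest on replicate 3, as were 36.3% of all genes. Among wild-type arrays, 5 of 9 (Th, Slc18a2, Slc6a3, Drd2 and Aldh1a1) were lowest on replicate 3, as were 34.7% of all genes, whereas Gch1 and Maoa were highest on that array. Other markers moved with knockout-labelled replicate 2 as well: all 9 measured oligodendrocyte markers and 16 of 20 dopamine neuron identity markers were lowest there in their group, and the score of 9 cortical and hippocampal markers was highest there of all arrays (0.48). The part of the oligodendrocyte and cortical markers in the members' values was not tested. The SD was larger in the knockout-labelled group for 6 of 9 members, against 53.4% of all genes. The median SD of the 9 was 0.24 there and 0.098 in the wild-type group, where genes above the 40th percentile had medians of 0.10 and 0.094.

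**Figure D3:**
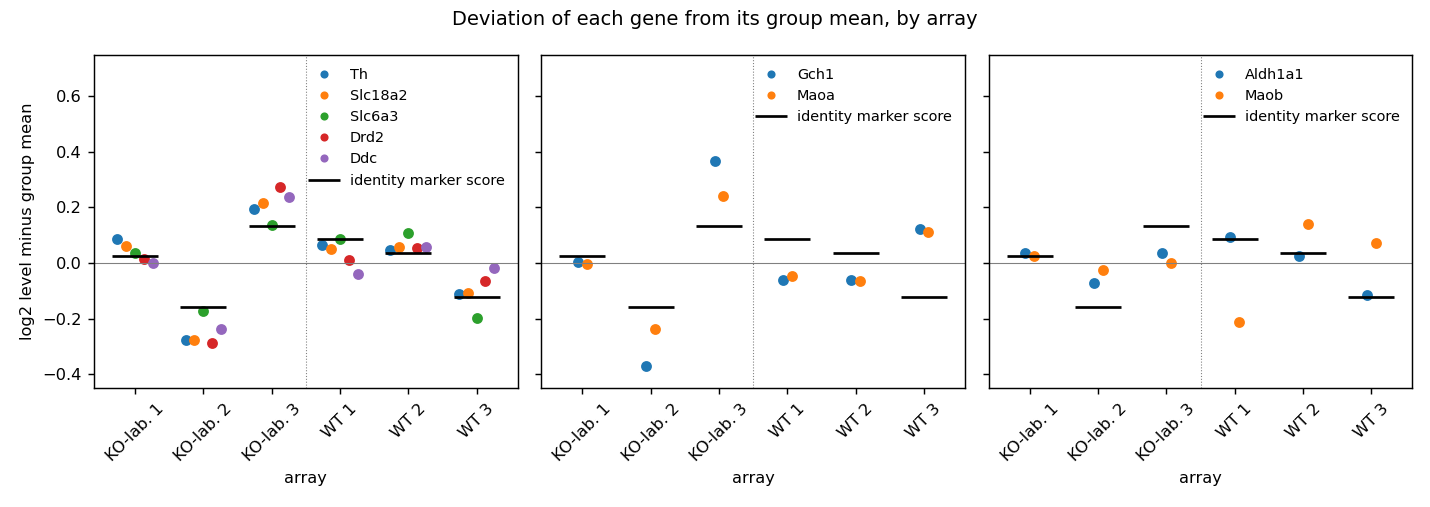
Log2 level minus the mean of its own group, for each gene on each array; black bars give the score of 20 dopamine neuron identity markers, centred in the same way, and KO-lab. stands for knockout-labelled. Th, Slc18a2, Slc6a3, Drd2 and Ddc sit low on knockout-labelled replicate 2 and high on replicate 3, while Gch1 and Maoa part from the score on wild-type replicate 3 and Maob on wild-type replicate 1.

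Pearson correlations of group-centred levels over the 6 arrays were computed for all 36 pairs of members. With group means removed there are 36 arrangements of arrays within groups, so the exact permutation p cannot go below 0.0278 and the adjusted p over 36 pairs was 0.2 or more for every r. The values are therefore descriptions. Of the 36, 32 were above 0 and 8 reached 0.9. The 10 pairs among Th, Ddc, Slc18a2, Slc6a3 and Drd2 ran from 0.70 to 0.99, and the 8 pairs with Maob from -0.47 to 0.23. With the 2 arrays farthest from the median of the gene named first left out, the 10 pairs ran from 0.31 to 0.99. In every r with 2 arrays left out, here and below, levels stayed centred on the means of all 3 arrays of each group. Such an r therefore cannot show how far a relation rested on the arrays left out.

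Th and Slc18a2 were the closest pair (r = 0.99, exact permutation p = 0.0556; Spearman's rho = 0.94, p = 0.111). Leaving out knockout-labelled replicate 2 and wild-type replicate 3, the arrays farthest from the median of Th, r was 0.97. Slc18a2 and Drd2 followed each other in the same way (r = 0.97, rho = 0.94, exact permutation p = 0.0278 for both), with r = 0.99 after leaving out the same arrays. Ddc and Drd2 had r = 0.98 (exact permutation p = 0.111) and rho = 0.94 (p = 0.0833), with r = 0.61 after leaving out knockout-labelled replicates 2 and 3. Without those arrays r fell from 0.92 to 0.31 for Ddc and Slc18a2 and from 0.70 to 0.35 for Ddc and Slc6a3. Th and Slc6a3 had r = 0.89 (exact permutation p = 0.0556) and rho = 0.71 (p = 0.167), and r = 0.49 without knockout-labelled replicate 2 and wild-type replicate 3. Slc6a3 and Aldh1a1 had r = 0.91 (exact permutation p = 0.0833) and rho = 0.71 (p = 0.222), and r = -0.11 without those arrays.

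Gch1 and Maoa had r = 0.99 and rho = 1.0 (exact permutation p = 0.0278 for both), and r was 0.996 after leaving out knockout-labelled replicates 2 and 3. Both also had high values with Ddc (r = 0.92 for Gch1 and 0.87 for Maoa) and with Drd2 (0.88 and 0.83). Without the same arrays these were -0.31 and -0.37 with Ddc and -0.92 and -0.95 with Drd2. The knockout-labelled group then kept only replicate 1, so these values and the 0.996 describe mainly the wild-type arrays. Th and Gch1, which supplies the cofactor of Th, had r = 0.76 (exact permutation p = 0.306) and rho = 0.66 (p = 0.333). That value was -0.016 without knockout-labelled replicate 2 and 0.96 without wild-type replicate 3, where Th was low and Gch1 high. Th and Maob had r = -0.066 (exact permutation p = 0.889) and rho = -0.086 (p = 0.917), and r was 0.66 without wild-type replicate 1.

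**Figure D4:**
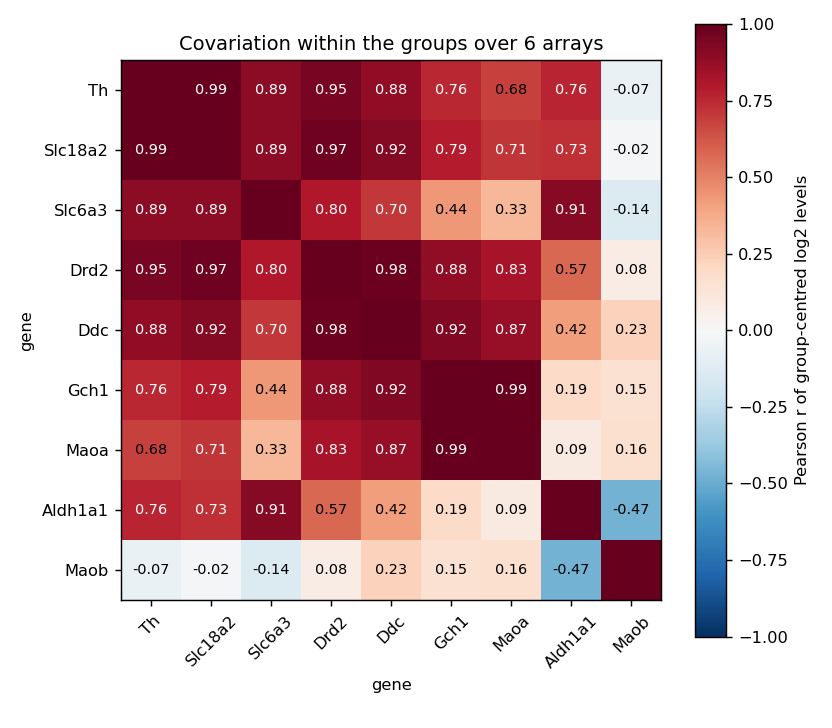
Pearson r of group-centred log2 levels over 6 arrays for each pair of the 9 genes, from -1 (blue) to 1 (red). Th, Slc18a2, Slc6a3, Drd2 and Ddc form a block from 0.70 to 0.99. Gch1 and Maoa reach 0.99 with each other and 0.33 to 0.92 with the genes of that block, and Maob stays between -0.47 and 0.23.

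The score of 20 identity markers, none of them a member, moved with most of the genes. The knockout-labelled arrays had scores of 0.055, -0.13 and 0.16, lowest on replicate 2, and the wild-type arrays of 0.057, 0.0058 and -0.15, lowest on replicate 3. Of these markers the mean was higher for 15 and lower for 5 in the knockout-labelled group, and limma called 0 over all probe sets. Within groups the score had r = 0.96 with Slc6a3 (exact permutation p = 0.0556; rho = 0.89, p = 0.0833) and 0.95 with Th (exact permutation p = 0.0278; rho = 0.83, p = 0.139), with 0.73 and 0.79 after leaving out knockout-labelled replicate 2 and wild-type replicate 3. For Gch1 it was 0.60 (exact permutation p = 0.361; rho = 0.49, p = 0.583), for Maoa 0.51 (exact permutation p = 0.444; rho = 0.49, p = 0.583) and for Maob -0.26 (exact permutation p = 0.722; rho = -0.14, p = 0.833). In all 27 relations of a member with a marker score that were computed, after the values were seen, the adjusted p was 0.273 or more. In whole tissue, fewer dopamine neurons and less RNA per neuron cannot be told apart.

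With the identity score as a covariate, the differences of the neuron genes shrank and so did their errors. The log2 difference of Th went from 0.14 to 0.053 (SE 0.089), that of Slc18a2 from 0.17 to 0.087 (SE 0.090), that of Slc6a3 from 0.15 to 0.075 (SE 0.085) and that of Drd2 from 0.044 to -0.040 (SE 0.11). Ddc stood at 0.20 (95% interval -0.083 to 0.49) and Aldh1a1 at 0.23 (95% interval 0.014 to 0.44). Limma called 0 of the 9 in this fit too, with an adjusted p = 0.529 for Aldh1a1 and a higher mean for 6 of 9.

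Of the markers of other cells that use these genes, limma called 0. Slc6a4 and Tph2, the transporter and the synthesis enzyme that define serotonin neurons, had mean levels under the 40th percentile. Slc6a4 was at 5.27, 4.90 and 5.36 on the arrays labelled knockout and at 4.64, 4.66 and 4.50 on the others (limma, adjusted p = 0.513). Tph2 was at 4.96, 4.96 and 5.30 against 4.72, 4.78 and 4.74 (limma, adjusted p = 0.5665). The groups overlapped for neither, so 2 of the 4 measured serotonin markers did not overlap, against 14.3% of all probe sets. The same number had an unadjusted p under 0.05 by limma, against 8.27% of all probe sets. The score of 4 measured serotonin neuron markers spanned -0.018 to 0.40 in the knockout-labelled group and -0.23 to -0.13 in the wild-type group, and all 4 had a higher mean. It was highest on knockout-labelled replicate 3, where Ddc, Gch1, Slc18a2 and Maoa were highest too, and lowest on wild-type replicate 3, where Gch1 and Maoa were the highest of their group. Within groups this score had r = 0.97 with Drd2 (exact permutation p = 0.0833; rho = 0.83, p = 0.139), 0.94 with Ddc (exact permutation p = 0.194; rho = 0.66, p = 0.25) and 0.94 with Slc18a2 (exact permutation p = 0.111; rho = 0.77, p = 0.194). It had 0.91 with Th (exact permutation p = 0.111; rho = 0.83, p = 0.139), 0.87 with Gch1 and 0.82 with Maoa (for both, exact permutation p = 0.306; rho = 0.49, p = 0.583). For Ddc and Gch1 the identity score gave the smaller values of 0.78 and 0.60, a difference that was not tested. Leaving out knockout-labelled replicates 2 and 3, the serotonin score had r = 0.65 with Drd2, -0.065 with Ddc, 0.69 with Slc18a2, 0.65 with Th, -0.88 with Gch1 and -0.84 with Maoa. The knockout-labelled group then kept only replicate 1, so these values describe mainly the wild-type arrays. The 10 astrocyte markers had 5 higher and 5 lower means and scores within -0.043 to 0.045, with r = 0.76 against Maob (exact permutation p = 0.0556; rho = 0.77, p = 0.111) and 0.77 after leaving out knockout-labelled replicate 2 and wild-type replicate 2. Pituitary (Prl, Gh) and striatal cells also express Drd2. The 7 measured pituitary markers had 1 higher and 6 lower, with scores of -0.24 to -0.033 in the knockout-labelled group and -0.030 to 0.30 in the wild-type group, and the 7 measured striatal markers had 1 higher and 6 lower, with scores from -0.21 to 0.064 and -0.25 to 0.28. The part of these cells in the differences between the groups was not tested.

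The genes whose group-centred profile was most like that of Th were Gpr139 (r = 0.998), BC025920 (0.995), Zfp668 (0.995), Tns3 (0.995) and Slc25a30 (0.995). Only genes above the 40th percentile of mean level, with enough spread within groups relative to that of Th, were compared, which left out Aldh1a1. Of the other members, Slc18a2 came 6th, Drd2 163rd, Slc6a3 477th, Ddc 532nd, Gch1 1255th, Maoa 1687th and Maob 5642nd of 9481 genes that were compared over the 6 arrays. An r of 0.9 was reached by 426 of them (4.49%). Compared in the same way after the values were seen, Maoa came 5th of 5602 genes for Gch1, behind Gm9958, Gm7854, Gm5945 and Nod1. An r of 0.9 was reached by 188 of those genes (3.36%). For Maob, Aldh2, a mitochondrial aldehyde dehydrogenase that acts after the monoamine oxidases, came 2nd of 12398 (r = 0.997). Prph came before it and Ngb, Nnat and Irs4 after it, and 377 genes (3.04%) reached an r of 0.9 with Maob. Aldh2 was at 9.27, 9.24 and 9.24 in the knockout-labelled group and at 9.05, 9.33 and 9.28 in the wild-type group, low on the same wild-type replicate 1 as Maob. The hypothalamic score (-0.24, 0.44 and 1.05 on wild-type replicates 1, 2 and 3) and the striatal score (-0.25, 0.24 and 0.28) were lowest there too. The identity score was highest there (0.057). The part of neighbouring tissue in the spread of Maob was not tested.

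The wider pathway showed no called gene either. Of 29 further genes of dopamine metabolism and transport 24 were measured, 8 higher and 16 lower in the mean of the knockout-labelled group. Their median log2 difference was -0.011. Limma called 0 of them over all probe sets, with a smallest adjusted p of 0.687. At an unadjusted p under 0.05 it gave 0 of 24, against 8.27% of all probe sets. In tetrahydrobiopterin synthesis and recycling 1 of 5 was higher, with Pcbd1, a recycling enzyme, at -0.16 (limma, adjusted p = 0.742) and Pts at -0.086 (adjusted p = 0.838). In amino acid supply 1 of 3 was higher. Slc7a8 was at -0.085 (limma, adjusted p = 0.875) and Slc3a2, the heavy chain of the large neutral amino acid carrier, at -0.029 (adjusted p = 0.938). Of 6 further breakdown enzymes 1 was higher. Comtd1, a methyltransferase by its sequence, was at -0.12 (limma, adjusted p = 0.718), and Aldh2 was at 0.030 (adjusted p = 0.953). The groups did not overlap for 1 of the 24, Comtd1, against 14.3% of all probe sets.

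Among other transporters of monoamines 2 of 4 were higher. The organic cation transporter Slc22a2 had the widest interval, at -0.59 (95% interval -1.43 to 0.24; limma, adjusted p = 0.687), and the noradrenaline transporter Slc6a2 was at 0.15 (adjusted p = 0.886). Of the other 4 dopamine receptors 2 were higher, with Drd4 at 0.086 and Drd3 at 0.11 (limma, adjusted p = 0.888 for both). Dbh and Pnmt, which turn dopamine into noradrenaline and adrenaline, were at -0.012 and 0.047 (limma, adjusted p = 0.989 and 0.939). Their levels were close to the 40th percentile. The other listed genes were not analysed here.

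**Figure D5:**
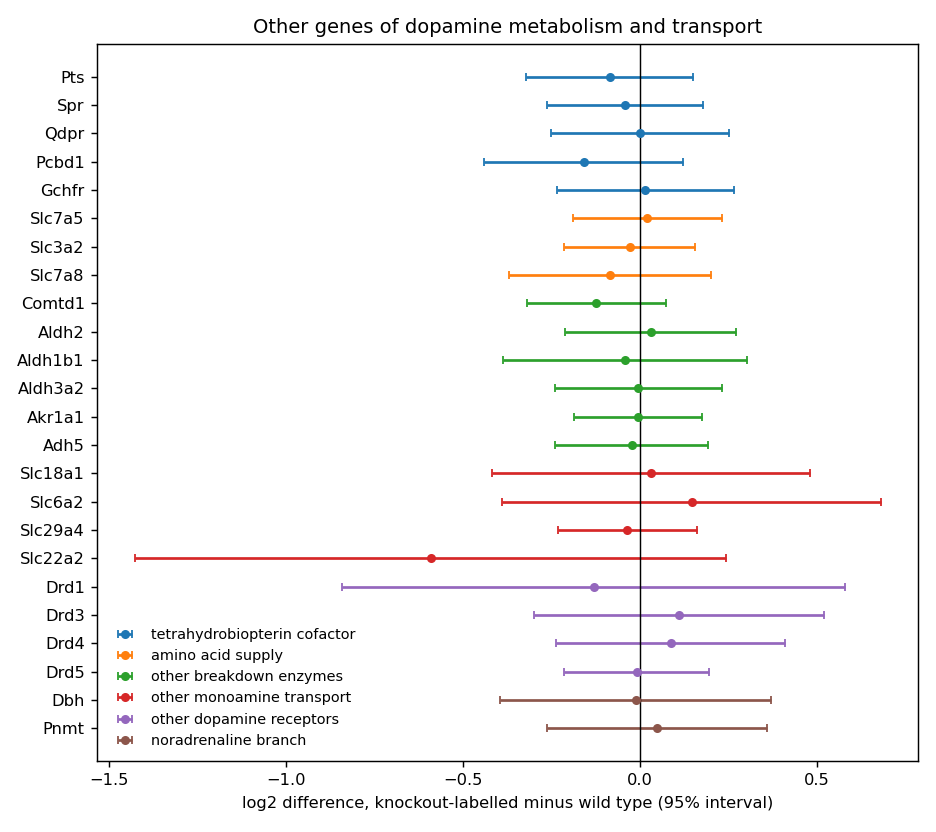
Log2 difference (knockout-labelled minus wild type) with its 95% interval from limma for 24 other genes of dopamine metabolism and transport, coloured by role. Every interval spans 0, and that of Slc22a2 is the widest.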

How the data were processed

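The deposited table holds 1 log2 value for each probe set and array, which the authors made by RMA, as the submitters' processing notes name it. Its version is not stated in these sources, and the log2 scale was read from the values (0.745 to 14.1). RMA makes arrays nearly alike in distribution (array medians 5.58 to 5.69), so a shift of most genes would be lost, and differences of dim probe sets are understated. There were 0 unused columns of sample values.

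Genes came from the platform annotation, updated through Entrez identifiers to RefSeq (GRCm38.p6): 23521 probe sets had 1 gene, 1814 several and 16010 none. All 41345 probe sets were fitted with limma 3.58.1 (R 4.3.3; lmFit, eBayes, no covariate, 3 against 3 arrays) and p-values adjusted with Benjamini-Hochberg over all of them. The fit was tested on simulated data. Correlations used levels minus the group mean, and their exact permutations kept arrays within groups. Scores are mean deviations from the average of all arrays. Promoter windows were matched by symbol.

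The members and lists were chosen with earlier results of these data known. All members are named, with Bach1 and Hmox1 as a check, up to 2 genes per pathway list by smallest p, the defining genes of the marker lists that bear on them, and the 5 genes most like Th. Other named genes were chosen after their values were seen. Alternatives were leaving out each array, a replicate block, other scalings, a filter on dim probe sets, other variance models, array weights and the identity covariate. The mean over several probe sets equals the reported value, as each member has 1.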

Additional observations from a re-analysis of the deposited data

How the results depend on the processing

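Over 13 alternatives, 112 of 117 member values kept their direction and stayed above the threshold of limma's adjusted p, the smallest being 0.475 (Aldh1a1), and 0 of 9 members were called in any. The other 5 changed sign. Drd2 went from 0.044 to -0.0032 with arrays centred on their medians and to -0.040 with the identity covariate. Without 1 array, Drd2 ran from -0.094 to 0.19, Gch1 from -0.025 to 0.34 and Maoa from -0.20 to 0.039, with both ends set by knockout-labelled replicates 2 and 3. The count of members with a higher mean was 8 without knockout-labelled replicate 2 and 5 without replicate 3. The cause was not tested. Over all probe sets the count called, 3, fell to between 0 and 0 without any 1 array, where fewer arrays are fitted, and to 0 with the replicate block.

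Same-numbered arrays of the groups had r = 0.086, -0.033 and 0.040 across probe sets, and different-numbered arrays -0.083 to 0.046. With deviations from means of 3 arrays, these values cannot tell whether the numbers pair the arrays. With the replicate block 0 members were called. The SE fell there from 0.19 to 0.14 for Gch1 and from 0.14 to 0.10 for Maoa, and rose for the other members. Centring moved the median difference of all genes from -0.0098 to -0.057. The correlation of Th and Slc18a2 stayed between 0.976 and 0.998 and that of Gch1 and Maoa between 0.966 and 0.999 without any 1 array or after renewed quantile normalization, alternatives added after seeing the data. With 3 arrays a group the 95% intervals are wide: their upper ends ran from 1.08-fold (Maob) to 1.54-fold (Gch1).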
